A study of Rattus norvegicus with 60 samples.

Results

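The genes described here belong to blood and lymph vessel endothelium and to the growth factor systems that act on it. The list held 35 genes in 5 roles. They were 17 endothelial identity genes, 3 vessel type genes, 7 growth factor receptors and co-receptors, 6 ligands and 2 genes grouped under tip cells. Tip cells are the cells that lead a vascular sprout. A gene counted as measured where a probe set was annotated with its symbol and no other. That gave 30 of the 35 genes, out of 18166 genes measured in this way on the array. Pecam1, Eng, Ptprb, Ackr1 and Kdr had no such probe set and are not analysed here, so the main VEGF receptor gene is missing from what follows.

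All animals were rats with haemophilia A, a bleeding disorder caused by lack of coagulation factor VIII, and no rat without the disease was among the groups used here. Synovial tissue from inside the knee joint and a popliteal lymph node, behind the knee, were taken 24 h after the procedure. In 11 rats a bleed had been induced in the left knee, and each of them gave its bled knee, its right contralateral knee and both nodes. A further 9 rats had a sham procedure and gave right-side samples, 9 nodes and 7 knees, the other two knees having too little RNA. The bled side was thus always the left, so bleed and body side cannot be told apart. The sources used here do not give strain, age or sex. Values are log2 expression values, on which a difference of 1 is a 2-fold change, and each probe set has its own scale, so levels are compared between samples and not between genes.

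Vessel sprouting is driven by the VEGF family, secreted ligands that bind the receptor tyrosine kinases encoded by Flt1, Kdr and Flt4 with the neuropilins as co-receptors. The angiopoietins act on the receptor encoded by Tek: Angpt1, made mostly by perivascular cells, keeps vessels quiescent and tight, and Angpt2, made by endothelium itself, is known to oppose it in inflamed or remodelling vessels. Under VEGF some endothelial cells become tip cells and hold back their neighbours through Notch signalling. New vessels are a known feature of the synovium after joint bleeds in haemophilia.

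The tissue labels were checked first. Prg4, which encodes the joint lubricant made by synovial cells, lay between 12.92 and 13.41 in all knee arrays and between 7.09 and 10.26 in all node arrays. The B cell gene Cd79a lay between 10.35 and 11.08 in the nodes and between 5.00 and 6.91 in the knees. The array medians ran from 5.64 to 5.94. A few arrays stood apart: the sham knee of rat C5 correlated at 0.965 with the rest of its group, against 0.984 for the next array, and so did the sham nodes of C9 (0.965) and C2 (0.984), where the next array had 0.993. The contralateral knee of rat K10 had the highest leukocyte and cell cycle marker means of its group and the lowest mean of the identity genes (9.34, against a group median of 9.88).

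The promoters of 5 members are shown because their genes took different courses in the bled knee: Cldn5, Emcn and Mmrn2 are identity genes among those with the largest decreases, and Vegfb and Vegfa are ligands of which the first fell and the second did not pass the test. Each is RefSeq sequence of the rat build GRCr8, 250 bases before to 50 bases after the annotated start, written 5′ to 3′ on the strand of the gene. Capitals mark AGGAAG or its reverse complement CTTCCT, a form of the core that ETS factors such as the product of the member Erg bind, and ACGTG or its reverse complement CACGT, the core of the element bound by hypoxia-inducible factors.
Cldn5, chr11:95718549-95718848, minus strand: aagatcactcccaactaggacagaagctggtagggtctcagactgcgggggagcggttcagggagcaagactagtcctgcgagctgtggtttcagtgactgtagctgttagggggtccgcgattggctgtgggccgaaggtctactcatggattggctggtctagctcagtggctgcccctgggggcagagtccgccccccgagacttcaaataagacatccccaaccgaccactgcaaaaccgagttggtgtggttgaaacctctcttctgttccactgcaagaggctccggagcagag
Emcn, chr2:228564289-228564588, plus strand: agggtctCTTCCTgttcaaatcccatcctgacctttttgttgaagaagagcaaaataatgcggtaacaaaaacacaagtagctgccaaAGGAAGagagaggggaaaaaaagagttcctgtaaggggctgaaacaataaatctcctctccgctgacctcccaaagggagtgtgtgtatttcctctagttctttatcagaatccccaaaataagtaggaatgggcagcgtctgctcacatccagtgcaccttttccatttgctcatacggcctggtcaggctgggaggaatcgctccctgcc
Mmrn2, chr16:9711955-9712254, plus strand: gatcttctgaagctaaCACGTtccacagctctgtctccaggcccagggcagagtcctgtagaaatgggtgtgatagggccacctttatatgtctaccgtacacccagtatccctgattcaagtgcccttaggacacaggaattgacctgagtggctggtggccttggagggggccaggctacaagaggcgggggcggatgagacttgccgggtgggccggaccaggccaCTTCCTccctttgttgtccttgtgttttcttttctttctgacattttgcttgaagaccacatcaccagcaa
Vegfb, chr1:213607103-213607402, minus strand: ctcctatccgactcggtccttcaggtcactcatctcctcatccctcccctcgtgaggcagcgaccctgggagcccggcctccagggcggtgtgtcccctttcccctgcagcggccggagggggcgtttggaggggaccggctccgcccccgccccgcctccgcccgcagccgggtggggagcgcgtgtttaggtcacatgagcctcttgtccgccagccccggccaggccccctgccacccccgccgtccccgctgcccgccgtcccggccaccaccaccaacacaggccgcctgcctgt
Vegfa, chr9:22452604-22452903, plus strand: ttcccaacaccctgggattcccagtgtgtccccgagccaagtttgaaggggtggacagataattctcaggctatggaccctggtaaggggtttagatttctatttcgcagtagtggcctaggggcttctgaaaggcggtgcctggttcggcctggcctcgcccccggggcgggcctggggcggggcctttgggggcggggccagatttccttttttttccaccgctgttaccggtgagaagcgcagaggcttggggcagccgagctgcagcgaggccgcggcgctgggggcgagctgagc
The table held promoters for 21 of the 35 members, 19 of them measured. AGGAAG on either strand was present in 9 of these 19, and in 34.3% of all 27457 promoters of the same length. ACGTG on either strand was present in 4 of the 19 and in 19.7% of all, and CACCC on either strand, the core bound by Krüppel-like factors and not marked in the sequences, in 14 of the 19 and in 55.1% of all. ACGTG and CACGT overlap where a window holds CACGTG, as the promoter of Clec14a does. A match in such a window is a description and not a binding site, and a window without one says nothing of the factor.

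The first question was how the bled knee differed from the other knee of the same rats. Genes that mark endothelium were lower in the bled knee, and so were Tek and 3 of the 6 ligands, whereas Vegfa and Angpt2 did not pass the test and the apelin receptor gene Aplnr was higher. By limma with Benjamini-Hochberg adjustment over all probe sets, 22 of the 30 members were lower and 1 was higher at an adjusted p under 0.05, and 7 did not pass. Of all 36685 probe sets 15.2% were lower and 19.5% higher, so the bleed shifted a large part of the array in both directions. These shares, like all those below, include dim probe sets, whereas nearly all members lay above the array medians. With probe sets under the median level of the tissue left out, 4877 of 18346 were lower and 6364 higher. The median difference of the members was −0.68, against −0.004 for all genes with a probe set of 1 symbol. In 14 members every bled knee lay below every contralateral knee, which 5.61% of all probe sets showed, and in 1 member every bled knee lay above (7.9% of all). Because these are bulk samples, fewer endothelial cells, less RNA per endothelial cell and a larger share of RNA from other cells cannot be told apart.

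**Figure D1:**
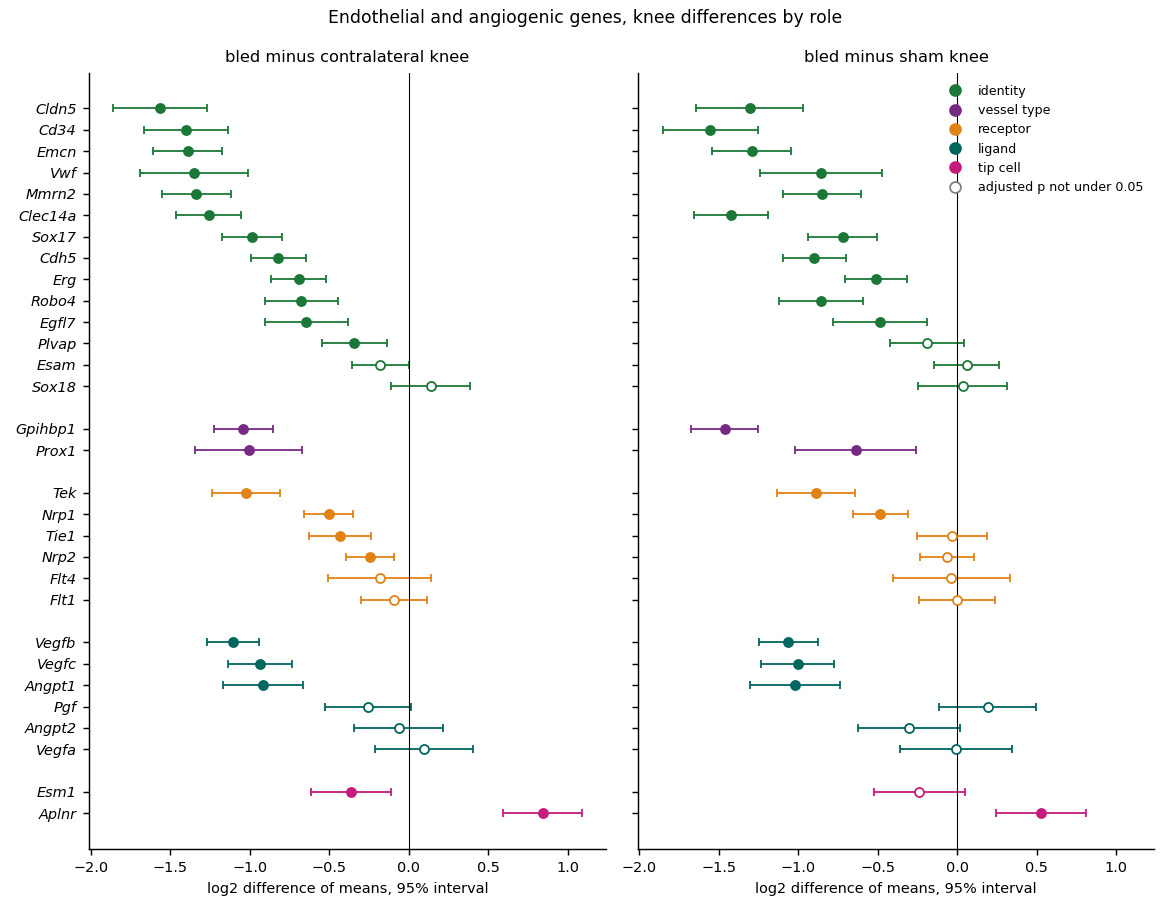
Differences of group means in knee tissue on the log2 scale (x axis) for each measured member (y axis), with 95% intervals from the limma fit, coloured by role; filled points passed the test and open points did not. Most identity genes lie left of 0 in both panels, Flt1 and Vegfa lie near 0, and Aplnr lies to the right in both.

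Among the identity genes, 12 of 14 fell in the bled knee against the contralateral knee, and the median difference was −0.90. Cldn5, which encodes the claudin of endothelial tight junctions, had values of 6.29, 7.09 and 7.65 (lowest, median, highest) in bled knees, against 7.86, 8.73 and 9.24 in contralateral knees and 8.12, 8.46 and 8.62 in sham knees. Every bled knee thus lay below every other knee. The difference from the contralateral knee was −1.57 ± 0.15 (SE; adjusted p = 1.86e-10), a 2.96-fold decrease, and all 11 rats showed it.

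Cd34, a sialomucin of capillary endothelium and of stem and progenitor cells, had 9.37, 9.87 and 10.61 in bled knees, against 10.73, 11.26 and 11.88 in contralateral and 11.17, 11.48 and 11.76 in sham knees. Emcn, which encodes the sialomucin endomucin of capillaries and veins, had 8.77, 9.37 and 9.56 in bled knees, against 10.06, 10.72 and 11.06 in contralateral and 10.39, 10.61 and 10.85 in sham knees. In neither gene did the bled group overlap another group. Cd34 was lower by −1.40 ± 0.13 (SE; adjusted p = 1.90e-10) and Emcn by −1.39 ± 0.11 (SE; adjusted p = 3.74e-12) than in the contralateral knee, each in 11 of 11 rats.

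Vwf encodes von Willebrand factor, which endothelium stores and which carries factor VIII in plasma. Its values were 8.15, 8.55 and 9.28 in bled knees, against 9.30, 9.94 and 10.43 in contralateral knees and 8.92, 9.20 and 10.22 in sham knees. The bled group lay just below the contralateral group without overlap and overlapped the sham group. The difference from the contralateral knee was −1.35 ± 0.17 (SE; adjusted p = 5.03e-08).

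Mmrn2, which encodes an extracellular protein of the endothelial matrix, had 8.05, 8.63 and 8.96 in bled knees, against 9.42, 9.94 and 10.22 in contralateral and 9.12, 9.37 and 9.97 in sham knees. Sox17, a transcription factor of arterial endothelium, had 7.24, 7.60 and 7.85 in bled knees, against 8.11, 8.55 and 8.99 in contralateral and 7.86, 8.33 and 8.67 in sham knees. Both were lower than in either other group in every bled knee, by −1.34 (Mmrn2) and −0.98 (Sox17) against the contralateral knee. The C-type lectin gene Clec14a, a binding partner of the Mmrn2 protein, differed by −1.26, the cadherin gene Cdh5 of endothelial junctions by −0.82, and the ETS factor gene Erg by −0.69, all without overlap between bled and contralateral knees.

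Robo4, a receptor that stabilises vessels, differed by −0.67, and Egfl7, a secreted endothelial matrix protein, by −0.64. Plvap, which forms the diaphragms of fenestrated capillaries, differed by −0.34 (adjusted p = 0.00712). In these 3 genes the bled and contralateral groups overlapped. The 2 identity genes that did not pass were Esam, an adhesion molecule of tight junctions, at −0.18 ± 0.09 (SE; adjusted p = 0.134), and Sox18, a transcription factor of vessel and lymphatic development, at 0.14 ± 0.12 (SE; adjusted p = 0.445). The outcome for Esam changed with the settings. Without the contralateral knee of K10, which had the lowest Esam value of its group (9.67), the difference was −0.23 and passed (adjusted p = 0.0329). With all arrays and quantile normalization it was −0.27 and passed too (limma, adjusted p = 0.0179).

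**Figure D2:**
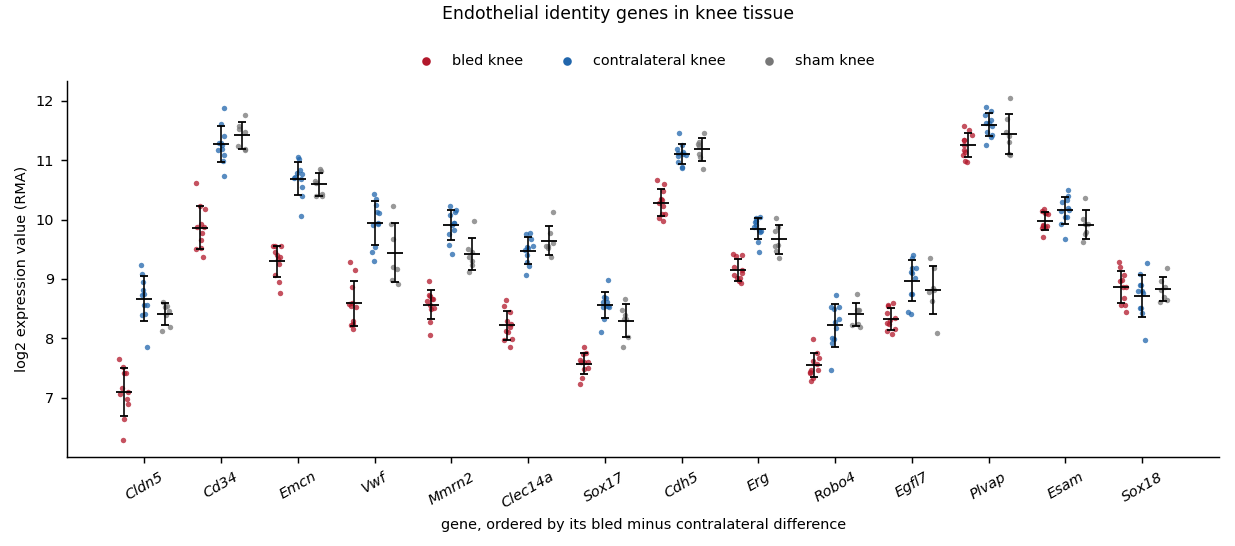
Log2 expression values (y axis) of the 14 measured identity genes (x axis) in each bled, contralateral and sham knee; points are arrays, bars are means and SD. The bled points lie below both other groups for Cldn5, Cd34, Emcn, Mmrn2, Clec14a and Sox17, and the 3 groups mix for Esam and Sox18.

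Both genes of particular vessel types fell. Gpihbp1 encodes the protein that carries lipoprotein lipase to the wall of capillaries in fat, heart and muscle. It had 6.37, 6.72 and 7.15 in bled knees, against 7.52, 7.79 and 8.16 in contralateral and 8.09, 8.31 and 8.38 in sham knees, without overlap, and differed by −1.04 ± 0.09 (SE; adjusted p = 6.35e-11) from the contralateral and −1.46 ± 0.10 (SE; adjusted p = 9.84e-13) from the sham knee. Prox1, the transcription factor that sets lymphatic endothelial identity, had 4.82, 5.48 and 5.96 in bled knees, against 5.80, 6.45 and 7.14 in contralateral and 5.67, 6.01 and 6.67 in sham knees. Its groups overlapped and its differences were −1.01 ± 0.16 (SE; adjusted p = 7.09e-06) and −0.64 ± 0.19 (SE; adjusted p = 0.00666). Prox1 in bled knees lay around the array medians, where a log2 difference may understate the change.

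The receptors did not share one course. Of 6 measured receptor genes, 4 fell against the contralateral knee, with a median difference of −0.34. Tek, the angiopoietin receptor gene, had 8.56, 8.99 and 9.43 in bled knees, against 9.57, 10.07 and 10.43 in contralateral and 9.69, 9.87 and 10.34 in sham knees. The bled group overlapped neither, and the differences were −1.02 ± 0.10 (SE; adjusted p = 1.56e-09) and −0.89 ± 0.12 (SE; adjusted p = 2.89e-07). Tie1, its orphan partner, had 9.12, 9.41 and 9.61 in bled knees, against 9.54, 9.72 and 10.27 in contralateral and 9.08, 9.33 and 9.91 in sham knees. It was lower by −0.43 ± 0.10 (SE; adjusted p = 0.00044) against the contralateral knee, in 11 of 11 rats, and by −0.03 ± 0.11 (SE; adjusted p = 0.846) against the sham knee, which does not pass.

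Nrp1 and Nrp2 encode the neuropilins, co-receptors for VEGF and for semaphorins. Nrp1 had 9.83, 10.19 and 10.57 in bled knees, against 10.59, 10.74 and 10.97 in contralateral and 10.39, 10.76 and 10.87 in sham knees. It differed by −0.50 ± 0.08 (SE; adjusted p = 1.59e-06) from the contralateral knee without overlap. Nrp2 had 9.77, 9.90 and 10.05 in bled knees, against 9.73, 10.22 and 10.44 in contralateral and 9.83, 9.90 and 10.27 in sham knees, and differed by −0.25 ± 0.07 (SE; adjusted p = 0.00856). The measured VEGF receptor genes, Kdr not being among them, did not pass. Flt1, whose product also acts as a decoy for VEGF-A, differed by −0.09 (95% interval −0.30 to 0.12). Flt4, the receptor for VEGF-C on lymphatic endothelium, differed by −0.18 (−0.50 to 0.14).

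Of the 6 ligands, 3 fell and 3 did not pass. Vegfb encodes a ligand of the FLT1 protein known for its link to fatty acid uptake by endothelium. It had 9.69, 10.04 and 10.57 in bled knees, against 10.93, 11.19 and 11.37 in contralateral and 10.82, 11.18 and 11.31 in sham knees. Every bled knee lay below every other knee, and the differences were −1.10 ± 0.08 (SE; adjusted p = 9.45e-13) and −1.06 ± 0.09 (SE; adjusted p = 4.39e-11).

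Vegfc, the lymphatic growth factor gene, had 6.93, 7.25 and 7.72 in bled knees, against 7.84, 8.19 and 8.57 in contralateral and 7.89, 8.28 and 8.72 in sham knees. Again no bled knee reached another group, and the differences were −0.93 ± 0.10 (SE; adjusted p = 3.15e-09) and −1.003 ± 0.11 (SE; adjusted p = 1.14e-08). Angpt1 had 7.43, 7.99 and 8.49 in bled knees, against 8.38, 8.79 and 9.37 in contralateral and 8.45, 9.01 and 9.23 in sham knees. It was lower in 11 of 11 rats although the groups touched, by −0.92 ± 0.12 (SE; adjusted p = 2.30e-07) and −1.02 ± 0.14 (SE; adjusted p = 3.74e-07).

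Vegfa, the main angiogenic ligand and a target of hypoxia-inducible factors, had 9.29, 10.11 and 11.42 in bled knees, against 9.82, 10.09 and 10.28 in contralateral and 9.63, 10.27 and 10.53 in sham knees. The bled knees had both the lowest value, in K8, and the highest, in K2. The mean difference was 0.10 ± 0.15 (SE; 95% interval −0.21 to 0.41; adjusted p = 0.709) against the contralateral and −0.01 ± 0.17 (SE; −0.36 to 0.34; adjusted p = 0.981) against the sham knee, with 6 of 11 rats higher. The SD of Vegfa over bled knees, 0.52, was the largest of any member in that group, where the members had a median SD of 0.25, against 0.14 for Vegfa over contralateral knees.

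Pgf, the placental growth factor gene, had 6.87, 7.08 and 7.90 in bled knees, against 6.75, 7.39 and 8.03 in contralateral and 6.42, 7.00 and 7.38 in sham knees, with differences of −0.26 ± 0.13 (SE; adjusted p = 0.148) and 0.19 ± 0.15 (SE; adjusted p = 0.34). Without the bled knee of K2 the first was −0.33, and it passed both then and without the contralateral knee of K1 (lowest adjusted p = 0.0325). Angpt2 had 8.33, 8.72 and 9.43 in bled knees, against 8.28, 8.79 and 9.57 in contralateral and 8.76, 9.09 and 9.35 in sham knees, and did not pass in either comparison (−0.06 ± 0.14, SE, adjusted p = 0.804, and −0.30 ± 0.16, SE, adjusted p = 0.128). The 3 groups overlapped in both genes.

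The 2 genes grouped under tip cells moved in opposite directions against the contralateral knee. Aplnr encodes the receptor for apelin and is found on sprouting and venous endothelium, so its change is not a measure of tip cells alone. It had 9.35, 9.67 and 10.22 in bled knees, against 8.22, 8.93 and 9.20 in contralateral and 8.83, 9.25 and 9.63 in sham knees. Every bled knee lay above every contralateral knee, and the bled and sham groups overlapped. The differences were 0.84 ± 0.12 (SE; adjusted p = 8.52e-07) and 0.53 ± 0.14 (SE; adjusted p = 0.00245). Esm1, which encodes a proteoglycan secreted by tip cells under VEGF, had 5.11, 5.26 and 5.97 in bled knees, against 5.19, 5.68 and 6.34 in contralateral and 5.31, 5.62 and 5.75 in sham knees. The groups overlapped, the values lay around the array medians, and the differences were −0.36 ± 0.12 (SE; adjusted p = 0.0212), lower in 7 and higher in 3 of 11 rats, and −0.24 ± 0.14 (SE; adjusted p = 0.191).

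**Figure D3:**
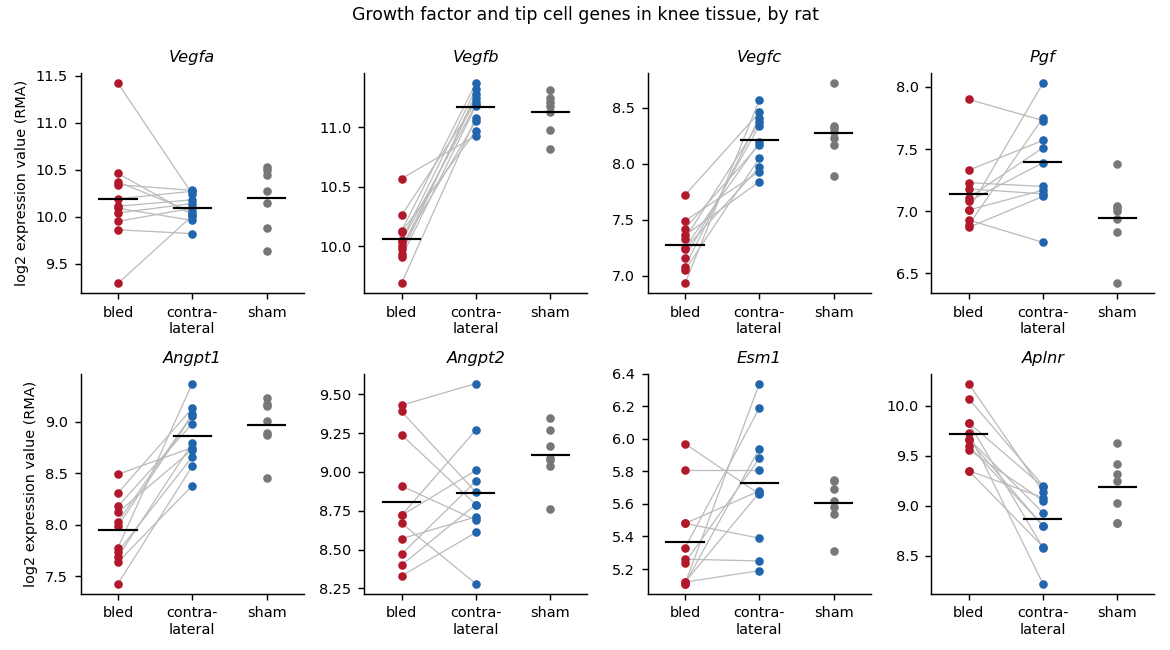
Log2 expression values (y axis, scaled for each gene) of the 6 ligand and 2 tip cell genes in bled, contralateral and sham knees; points are arrays, grey lines join the knees of a rat, and black lines are group means. The lines of Vegfb, Vegfc and Angpt1 all go up towards the contralateral knee, those of Aplnr all go down, and those of Vegfa, Pgf and Angpt2 cross.

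Against sham knees, which came from other rats, the bled knees gave 18 members lower, 1 higher and 11 that did not pass. Of all probe sets 38.7% passed, 18.8% lower and 19.9% higher. Without those under the median level, 5132 of 18346 were lower and 6723 higher. The median difference of the members was −0.58, against −0.04 for all genes of 1 symbol, and 12 members lay below sham without overlap (5.11% of all probe sets) and none above (9.52%). By role, 11 of 14 identity genes, both vessel type genes, 2 of 6 receptors and 3 of 6 ligands fell, and Aplnr rose. Cd34 differed by −1.55, Clec14a by −1.42, Cldn5 by −1.31, Emcn by −1.29, Cdh5 by −0.90, Vwf by −0.86, Robo4 by −0.86, Mmrn2 by −0.85, Sox17 by −0.72, Erg by −0.51 and Egfl7 by −0.49, whereas Plvap (−0.19), Esam (0.06) and Sox18 (0.03) did not pass. Nrp1 fell by 0.48 on the log2 scale, while Nrp2 (−0.07), Flt4 (−0.04) and Flt1 (−0.002) did not pass. Both comparisons use the same bled knees, so their like direction is not independent evidence. Leaving out any 1 of the knee arrays gave 22 or 23 members lower and 1 higher against the contralateral knee, and 18 lower and 1 higher against the sham knee.

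Other genes of the Notch and tip cell pathway mostly fell in the bled knee: of 15 measured, 9 were lower and 2 higher than in the contralateral knee, with a median of −0.34, and 9 were lower and 2 higher than in the sham knee. The pathway counts here and in the next paragraphs stand beside 15.2% of all probe sets lower and 19.5% higher against the contralateral knee, and 18.8% and 19.9% against the sham knee. The chemokine receptor gene Cxcr4, found on tip cells and on leukocytes, had 8.59, 9.58 and 10.02 in bled knees, against 6.66, 7.07 and 7.72 in contralateral and 6.83, 6.90 and 7.41 in sham knees, a difference of 2.38 ± 0.15 (adjusted p = 9.45e-14) from the contralateral knee. The gene of its ligand, Cxcl12, went the other way, with 8.60, 9.08 and 9.69 in bled, against 10.67, 11.00 and 11.10 in contralateral and 10.34, 10.53 and 10.69 in sham knees, a difference of −1.82. In both genes the bled group overlapped no other group. Apln, which encodes the ligand of the Aplnr product, was higher by 0.71, with 7.00 to 8.18 in bled, 6.53 to 6.87 in contralateral and 6.78 to 7.64 in sham knees. The Notch target Hey2 (−1.03) and the Notch ligand Jag1 (−0.90) were lower, and the tip cell ligand Dll4 (−0.13; adjusted p = 0.618) did not pass.

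Of 14 other measured angiogenic factors, 4 rose and 8 fell against the contralateral knee, and 3 rose and 7 fell against the sham knee; the share that rose lies near that of all probe sets. Angptl4, a secreted inhibitor of lipoprotein lipase induced by fasting and hypoxia, had 10.99, 11.32 and 11.62 in bled knees, against 7.55, 8.83 and 10.58 in contralateral and 9.40, 10.47 and 11.06 in sham knees. It was 2.28 higher than in the contralateral knee, and its difference from sham, 0.82, did not pass (adjusted p = 0.0524). Hgf (0.65), hepatocyte growth factor, and Pdgfa (0.45), a growth factor for mesenchymal cells, were also higher. Angptl2 (−1.39), Thbs2, an inhibitor of angiogenesis (−1.37), and Hbegf, an EGF receptor ligand (−1.27), were the lowest.

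Of 13 transcription factors and other regulators of endothelium, 4 rose and 7 fell against the contralateral knee, and 5 rose and 6 fell against the sham knee. Hif1a, the hypoxia-inducible factor subunit, had 11.90, 12.27 and 12.51 in bled knees, against 10.56, 10.68 and 11.09 in contralateral and 10.46, 10.78 and 11.07 in sham knees, a difference of 1.43 ± 0.08 (adjusted p = 8.74e-15) from the contralateral knee. Lyl1, a factor of blood and endothelial cells (0.50), and Nos3, endothelial nitric oxide synthase (0.38), were higher. Gata2 (−0.90), Klf2 (−0.86) and Klf4 (−0.66), the last 2 induced by laminar flow, were lower.

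Among 8 genes of activated endothelium, 2 rose and 2 fell against the contralateral knee, near the shares of all probe sets, and 4 rose and 3 fell against the sham knee. Selp, the P-selectin of platelets and endothelium, had 10.20, 10.99 and 11.23 in bled knees, against 6.81, 8.28 and 9.17 in contralateral and 7.57, 8.36 and 8.84 in sham knees, a difference of 2.74 ± 0.19 (adjusted p = 5.42e-13) from the contralateral knee. Sele, the E-selectin induced on inflamed endothelium, had 7.46, 9.38 and 10.13 in bled, against 6.16, 7.66 and 8.24 in contralateral and 5.87, 7.60 and 8.62 in sham knees, a difference of 1.62. The adhesion molecule genes Vcam1 (−1.16) and Icam2 (−0.55) were lower. These selectins were higher in the group of arrays in which most identity genes were lower. Which cells carried the selectin RNA was not tested. Of 7 other lymphatic genes, 5 fell and 1 rose against the contralateral knee, and 3 fell and 1 rose against the sham knee: Mmrn1 (−1.54), Nr2f2 (−1.02) and Lyve1 (−0.75), a receptor for hyaluronan that macrophages also carry, were lower, and Pdpn (1.09), which encodes podoplanin of lymphatic endothelium and synovial fibroblasts, was higher.

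Markers of other cells moved with these results. All 9 pericyte and smooth muscle genes and all 12 adipocyte genes were lower in bled knees than in contralateral ones, 10 of 12 leukocyte genes and all 10 cell cycle genes were higher, and 5 of 8 fibroblast genes and 1 of 8 skeletal muscle genes were lower. The mean of the identity genes per array ran from 8.61 to 9.23 in bled, 9.34 to 10.03 in contralateral and 9.45 to 9.998 in sham knees. The pericyte and smooth muscle mean ran from 8.87 to 9.73, 10.22 to 10.75 and 10.07 to 10.48 in the same groups. The adipocyte mean ran from 8.18 to 9.68 in bled, 10.98 to 11.60 in contralateral and 10.92 to 11.57 in sham knees, and the leukocyte mean from 9.15 to 9.997, 7.48 to 8.92 and 7.28 to 7.75. The fibroblast mean ran from 11.05 to 11.70 in bled, 11.42 to 12.05 in contralateral and 11.79 to 12.06 in sham knees. The part of these shifts in the endothelial result was not tested. The skeletal muscle genes had a median difference of −2.08 but varied widely within every group (6.08 to 12.36 in bled, 6.31 to 12.74 in contralateral and 6.35 to 12.70 in sham knees), and with its mean as a covariate the counts against the contralateral knee were the same, 22 lower and 1 higher.

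**Figure D4:**
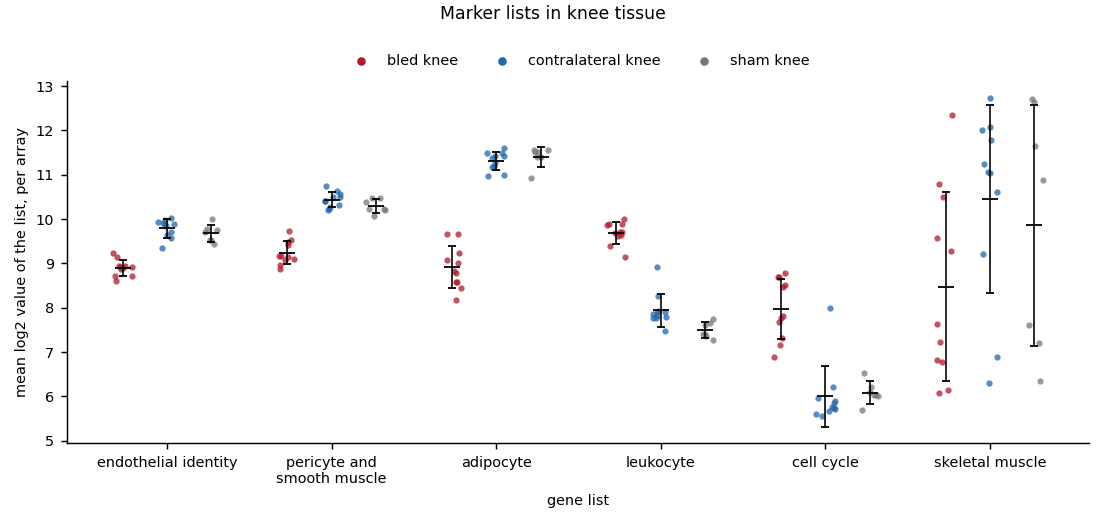
Mean log2 value of each gene list per knee array (y axis) for the endothelial identity genes and 5 marker lists (x axis), by group, with mean and SD. Bled knees lie below the other knees for endothelial identity, pericyte and smooth muscle, and adipocyte genes and above them for leukocyte genes; K10 is the contralateral array at 8.004 for the cell cycle genes.

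Whether the knee that was not bled differed from a sham knee was the next question. Of the 30 members, Mmrn2 was higher and Gpihbp1 lower, and 28 did not pass. Among all probe sets 1.82% passed, 0.984% higher and 0.831% lower. Without those under the median level, 577 of 18346 were higher and 296 lower. Mmrn2 was higher by 0.48 ± 0.12 (SE; adjusted p = 0.0307) and Gpihbp1 was lower by −0.42 ± 0.10 (SE; adjusted p = 0.0272), both with overlapping groups, as the values above show. Tie1 came next at 0.40 ± 0.11 (SE; adjusted p = 0.0514). These calls rested on few arrays. Mmrn2 no longer passed without the contralateral knee of K4, K6 or K11 or the sham knee of C2, C5, C6 or C9, and over all single omissions its difference ran from 0.43 to 0.57 and its adjusted p from 0.00576 to 0.0781. Gpihbp1 no longer passed without the sham knee of C5, C6 or C9, with differences from −0.46 to −0.39 and adjusted p up to 0.0635. Tie1 passed in 6 of 29 such fits. Among the marker lists, 3 of 8 fibroblast genes were lower than in sham knees, 1 of them without overlap, and none was higher. No leukocyte gene passed, though all 12 had positive differences with a median of 0.33. The part of these markers in the 2 calls was not tested.

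In the lymph nodes no member passed the test between the node of the bled side and the contralateral node of the same rats. By limma 0 of the 30 members and 0 of all 36685 probe sets (0%) passed, and at an unadjusted p under 0.05 there were 0 members and 860 probe sets (2.34%). The median difference of the members was 0.01 and the lowest adjusted p 0.9996. The differences ran from −0.16 for Nrp1 (95% interval −0.34 to 0.02) to 0.25 for Pgf (−0.02 to 0.51; higher in 10 of 11 rats). Vegfb (−0.11) was lower on the bled side in 10 of 11 rats, and Nrp1 and Cdh5 (−0.07) in 9 of 11. The fit behind these p-values and intervals had no block for rat, so it left the pairing of the nodes unused. Deviations of the nodes of a rat correlated by 0.233 on average, so small differences within rats can be missed by it. With rat as a random or a fixed block, 0 of all 36685 probe sets passed as well.

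Both nodes of the bled rats were also set against sham nodes. Against sham, 3 members were higher and none lower in the node of the bled side (4.26% of all probe sets passed, 1.91% higher and 2.34% lower), namely Sox17, Pgf and Aplnr, and 3 were higher and none lower in the contralateral node (5.03% passed, 2.22% higher and 2.81% lower), namely Sox17, Pgf and Vegfb. In the node of the bled side 0 members lay wholly above sham and 0 wholly below, where 0.101% and 0.0872% of all probe sets did, and in the contralateral node 2 lay wholly above and 0 below (0.169% and 0.0818%). With probe sets under the median level left out, 966 of 18344 were higher and 1140 lower than sham in the node of the bled side. In the contralateral node 1098 of 18344 were higher and 1336 lower. The comparisons share the sham nodes, so their common direction is not independent.

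Pgf had 7.24, 7.74 and 8.69 in nodes of the bled side and 7.16, 7.60 and 7.89 in contralateral nodes, against 6.35, 6.89 and 7.33 in sham nodes. It was higher by 0.87 ± 0.14 (SE; adjusted p = 0.000877) and 0.62 ± 0.14 (SE; adjusted p = 0.00854), with slight overlap. Sox17 had 7.34, 7.71 and 8.19 in nodes of the bled side and 7.48, 7.62 and 7.99 in contralateral nodes, against 6.27, 7.28 and 7.47 in sham nodes. The contralateral group lay wholly above sham, and the differences were 0.61 ± 0.11 (SE; adjusted p = 0.0029) and 0.55 ± 0.11 (SE; adjusted p = 0.00547).

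Vegfb had 9.49, 9.67 and 9.95 in nodes of the bled side and 9.66, 9.75 and 10.06 in contralateral nodes, against 8.47, 9.51 and 9.64 in sham nodes. The contralateral group again lay above sham without overlap, with a difference of 0.38 ± 0.10 (SE; adjusted p = 0.0214), and the node of the bled side at 0.27 ± 0.10 (SE; adjusted p = 0.11) did not pass. Aplnr had 6.71, 7.11 and 7.86 in nodes of the bled side and 6.84, 7.11 and 7.50 in contralateral nodes, against 6.20, 6.78 and 7.35 in sham nodes. It was higher by 0.49 ± 0.14 (SE; adjusted p = 0.0438) on the bled side, and at 0.45 ± 0.14 (SE; adjusted p = 0.0629) on the contralateral side it did not pass. That a gene passed on 1 side and not the other is no difference between the sides, which were compared directly above.

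The sham node of C9 had the lowest value of its group for Sox17, Pgf, Vegfb and Aplnr. Without the sham nodes of C2 and C9, Sox17 was higher by 0.47 and 0.40 in the node of the bled side and the contralateral node, Pgf by 0.75 and 0.50, and Vegfb by 0.24 in the contralateral node, and these passed (adjusted p from 0.00555 to 0.0427). Aplnr was then 0.36 higher on the bled side and did not pass (adjusted p = 0.185). It also failed in 12 of the 31 fits that left out 1 array, namely the bled-side nodes of K2, K4, K5, K7, K8 and K11 and the sham nodes of C1, C2, C3, C6, C7 and C9, with differences of 0.43 to 0.57 over all 31 fits and adjusted p up to 0.108. Esam, at 0.50 (adjusted p = 0.0567) and 0.48 (adjusted p = 0.0609), passed on both sides with rat as a replicate block (adjusted p = 0.0445 and 0.0471), and not without C2 and C9 (0.33 and 0.31; adjusted p = 0.207 and 0.226).

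**Figure D5:**
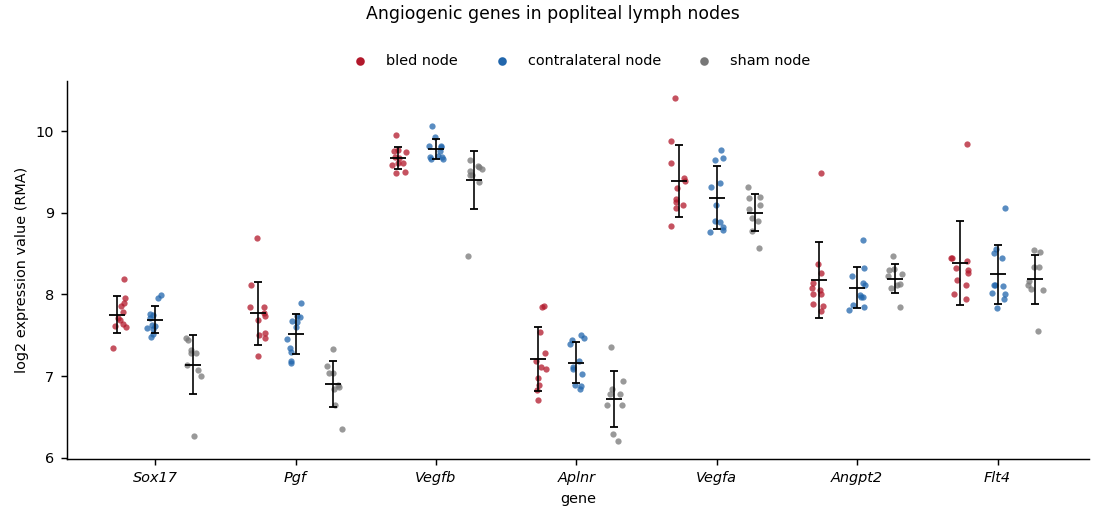
Log2 expression values (y axis) of 7 members (x axis) in nodes of the bled side, contralateral nodes and sham nodes; points are arrays, bars are means and SD. The nodes of bled rats sit above most sham nodes for Sox17 and Pgf, and 1 node, of K11, stands above its group for Vegfa, Angpt2 and Flt4.

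Rat K11 had the highest node values of its group on both sides for Flt4, Angpt2 and Vegfa, among others: Flt4 was 9.84 in the node of the bled side and 9.06 in the contralateral node, Angpt2 9.48 and 8.66, and Vegfa 10.40 and 9.77. Group medians for the same genes were 8.30 and 8.11, 8.05 and 7.99, and 9.30 and 9.10. The marker and pathway counts that follow stand beside 1.91% of all probe sets higher and 2.34% lower than sham in the node of the bled side. In the contralateral node these shares were 2.22% and 2.81%. Adipocyte genes also differed in the nodes: 3 of 12 were higher than sham in the node of the bled side and 5 of 12 in the contralateral node, with means per array of 7.23 to 9.08 and 8.34 to 9.06, against 7.24 to 8.92 in sham nodes. Of 8 fibroblast genes, 1 was higher than sham in the node of the bled side and 3 in the contralateral node, with means per array of 9.24 to 9.96 and 9.27 to 9.92, against 8.92 to 9.51 in sham nodes. Of 9 pericyte and smooth muscle genes, Kcnj8 was higher on both sides (0.48 and 0.51). No leukocyte or cell cycle gene passed. The part of these markers in the node results was not tested. In the node of the bled side, 2 of 14 other angiogenic factors, 3 of 8 genes of activated endothelium and 1 of 7 lymphatic genes were higher than sham, 1 of 13 regulators was lower (Lyl1, −0.25), and none of 15 Notch and tip cell genes passed. In the contralateral node 4 other angiogenic factors, 2 genes of activated endothelium, 2 lymphatic genes and 1 Notch and tip cell gene were higher, no regulator passed, and none of these lists had a lower gene. Sele was higher than sham by 1.23 and 0.95 and Pdpn by 0.53 and 0.56 in the node of the bled side and the contralateral node.

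The difference between bled and contralateral side was then compared between the tissues in 1 model of all arrays. In 21 members the difference was lower in the knee than in the node, in 1 it was higher and in 8 it did not pass, where 12.4% of all probe sets were lower and 15.5% higher. The median of the members was −0.73. Cldn5 had the largest contrast, −1.50 ± 0.19 (SE; adjusted p = 2.35e-09), and Aplnr the 1 positive contrast that passed, 0.80 ± 0.19 (SE; adjusted p = 0.000396). The 8 that did not pass were Esam, Sox18, Flt1, Flt4, Nrp2, Vegfa, Angpt2 and Esm1.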

How the data were processed

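RNA of each sample was hybridised to 1 Affymetrix rat gene array. The deposited values are log2 expression values which the authors computed by RMA, and the submitters' processing notes name Affymetrix Expression Console 1.4.46 for it. Whether both tissues were normalized together, and array batches or scan dates, are not given in the sources used here. Values covered 36685 probe sets, of which 18511 have 1 gene symbol in GEO's annotation of the array, 575 have several and 17599 are not listed there or carry no symbol. No member had a second probe set of 1 symbol. No array repeated another, and arrays have no sequencing depth, so their number limits the precision.

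Groups and rats came from the sample labels. Each tissue was fitted with limma 3.58.1 in R 4.3.3 (data.table version 1.17.8), with 3 groups, no filter and moderated tests, and p-values were adjusted by Benjamini-Hochberg over all probe sets. Calls were made where the adjusted p lay under 0.05. Differences are between means of log2 values. The tissues were compared in a fit of all 60 arrays. The models were also run on simulated data with 200 changed probe sets, and the outcome of that run is not given here. Python 3.11.15, pandas 2.3.3, numpy 2.4.6 and matplotlib 3.10.9 were used for promoters and plots.

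Members, role groups, gene lists and tests were chosen with earlier results of these data known. Values in every group are given for up to 4 called genes each way per role group by their difference between bled and contralateral knee, for all ligand, vessel type and tip cell genes, and for genes called elsewhere. Differences of the remaining members and values of rat K11 were added after they were seen. Of each pathway list up to 3 genes called each way are named, and Dll4, Procr, Sema3c, Lyl1 in nodes and the single marker genes were named after their values were seen.

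Per the labels, each bled rat gave the samples of both its sides, which pairs them by animal. Deviations from group means correlated between the sides by 0.069 on average in the knee (−0.104 to 0.211) and 0.233 in the node (0.121 to 0.324). The reported fits have no block. Alternatives were rat as a replicate block, only the compared groups, quantile normalization, median centring, leaving out dim probe sets, an intensity trend with robust prior, array weights, a skeletal muscle covariate, and leaving out arrays.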

Additional observations from a re-analysis of the deposited data

Results flagged for a closer look

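In the sham nodes 5 members each had 1 array far below the rest of its group. Rat C9 had 7.77 for Esam, where the next lowest node had 8.60, 6.27 for Sox17 (next 7.00), 7.91 for Tek (next 8.58) and 8.47 for Vegfb (next 9.38), and rat C8 had 7.55 for Flt4 (next 8.05). Groups of 10 or fewer arrays were screened for this, and chance alone marks about 1 in 20 such groups. The sham knees and the sham nodes had that size, for each member, so some marks are expected by chance. The values of C9 come from 1 array, which correlated least with the other sham nodes (0.965), and are not separate findings.

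For 22 members the difference between bled and contralateral side was not the same in knee and node by the interaction test in limma, and each contrast below is the knee difference minus the node difference on the log2 scale. Among identity genes it was −1.50 for Cldn5, −1.41 for Vwf, −1.39 for Emcn, −1.34 for Mmrn2, −1.32 for Cd34, −1.29 for Clec14a, −1.05 for Sox17, −0.78 for Egfl7, −0.75 for Cdh5, −0.72 for Robo4, −0.67 for Erg and −0.34 for Plvap. For the vessel type genes it was −1.05 for Prox1 and −0.94 for Gpihbp1. Receptors gave −1.03 for Tek, −0.40 for Tie1 and −0.34 for Nrp1, and ligands −1.05 for Vegfc, −0.99 for Vegfb, −0.83 for Angpt1 and −0.50 for Pgf. Aplnr, at 0.80, was the positive one.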

How the results depend on the processing

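Of 1644 values of single members under alternative settings other than single-array omissions, 1617 stayed on their side of the threshold, 16 came to pass, 11 no longer passed and none of those called turned round. Among the values that passed neither as reported nor under the alternative, 31 changed sign. Single-array omissions, which that tally leaves out, lost Aplnr in bled-side nodes in 12 of 31 fits and, in contralateral against sham knees, Mmrn2 in 7 and Gpihbp1 in 3 of 29. The counts of members in bled against contralateral or sham knees stayed within 1.5 times under every alternative run (21 to 23 lower and 18 to 20 lower). With rat as a replicate block, Esam came to pass in both nodes against sham (0.50 and 0.48) and no other call changed. In contralateral against sham knees the count of higher members, 1 as reported, was 0 with only the compared groups or quantile normalization and 2 with median centring, without dim probe sets, with an intensity trend or with the muscle covariate, and 0 to 2 when single arrays were left out. The count of lower members there, 1 as reported, was 0 with median centring or array weights and 0 to 1 without single arrays. In contralateral against sham nodes the count of higher members, 3 as reported, was 5 with quantile normalization or without dim probe sets, and 3 to 5 without single arrays, Aplnr and Esam among those added. In nodes of the bled side against sham it was 2 to 4 without single arrays. The cause of these changes was not tested, other than that fewer arrays or probe sets entered some fits. With only the compared groups Vegfb in contralateral nodes (adjusted p = 0.0636) and Aplnr in nodes of the bled side (adjusted p = 0.0973) no longer passed against sham, nor did Aplnr with array weights (0.35; adjusted p = 0.129). With quantile normalization Esam passed in bled against contralateral knees (−0.27), and Plvap (−0.35) and Angpt2 (−0.43) in bled against sham knees. Plvap (−0.32; adjusted p = 0.0912) and Pgf (−0.48; adjusted p = 0.0634) no longer differed between tissues with median centring, nor did Pgf with quantile normalization (−0.49; adjusted p = 0.0527), where Nrp2 did (−0.33; adjusted p = 0.0166). Median centring moved the split of all probe sets, higher to lower, to 8636 and 4933 for bled against sham knees (reported 7307 and 6908), 634 and 217 for contralateral against sham knees (361 and 305), 938 and 414 for bled-side against sham nodes (701 and 860) and 1052 and 442 for contralateral against sham nodes (813 and 1031). With only the compared groups these splits were 193 and 188 in the contralateral knee, 411 and 446 in the bled-side node and 605 and 532 in the contralateral node, and without sham nodes C2 and C9 they were 359 and 567 and 396 and 667 in the 2 nodes. A second probe set per gene could not be tried because no member had one. Prox1 in bled knees, Esm1 in knees and Angpt1 in nodes lie close to the array medians, and Esm1 in nodes lies below them (4.06 to 4.87), which limits what their differences show.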

Other observations

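Genes used as markers of mural cells, which wrap vessels, were lower in bled knees beside the endothelial genes. Rgs5, a pericyte gene, had 8.86, 9.54 and 10.31 (lowest, median, highest) in bled knees, against 10.99, 11.51 and 11.74 in contralateral and 11.34, 11.43 and 11.65 in sham knees, without overlap, and differed by −1.74 ± 0.14 (SE; limma, adjusted p = 9.07e-12) from the contralateral knee. Myh11, the smooth muscle myosin heavy chain gene, had 8.40, 9.02 and 9.97 in bled knees, against 10.57, 11.56 and 12.01 in contralateral and 10.50, 11.22 and 11.84 in sham knees, and differed by −2.25 ± 0.20 (SE; adjusted p = 8.37e-11). The pericyte proteoglycan gene Cspg4 differed by −1.32, Notch3 by −1.07 and Pdgfrb, the receptor for PDGF-B, by −0.72. Of 9 such genes 8 were also lower than in sham knees, the exception being Kcnj8 (0.01; adjusted p = 0.972). How far the shifts of these genes and of the 22 members that fell depend on each other was not tested.

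Of 5 platelet and megakaryocyte genes, Pf4, the platelet factor 4 gene that macrophages can also express, was higher in the bled knee (1.31 against contralateral and 1.48 against sham), and the others did not pass. In the contralateral against the sham knee, 2 of 14 other angiogenic factors were lower and 1 of 8 genes of activated endothelium was higher. None of the 15 Notch and tip cell genes, 13 regulators and 7 lymphatic genes passed. Of all probe sets 0.831% were lower and 0.984% higher. Angptl4 was lower by −1.46 and Sema3c, a semaphorin that binds neuropilins, by −0.56. Procr, the endothelial protein C receptor gene, was higher by 0.72. Angptl4 also had the widest spread of the pathway genes named here in contralateral knees, with SDs of 0.19 in bled, 1.07 in contralateral and 0.60 in sham knees.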
